A study of Homo sapiens with 8 samples.

Results

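Peaks of open chromatin at the 9 genes that encode AP-1 transcription factors were examined in U2OS cells: JUN, JUNB, JUND, FOS, FOSB, FOSL1, FOSL2, ATF3 and BATF3. They were 9 of 62062 genes annotated by GENCODE on chromosomes 1 to 22 and X. The peaks of 8 libraries were merged into 52105 regions, and the 66 regions in the body of a member or within 20 kb of it were taken, without regard to their values. Of these, 11 lay within 500 bp of a start of a member's own transcripts (own promoter), 34 lay over 500 bp from any annotated start (distal) and 21 lay at starts of other genes. The regions held 124, 143 and 119 peaks, respectively. Distances given in kb run from the summit of a region to the main start of the gene, so that a region past the end of a long gene can lie over 20 kb from its start.

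U2OS is a human osteosarcoma cell line. FAIRE-seq was performed, in which sonicated crosslinked chromatin is extracted with phenol and chloroform, and the DNA left free in the aqueous phase, enriched for nucleosome-depleted sites, is sequenced. The clones WT_4 and WT_5 were wild type, and in the clones KO_C5 and KO_D2 the gene ZBTB48 was knocked out (KO). ZBTB48 encodes a zinc finger factor of telomeric repeats and gene promoters. Each of the 4 clones gave 1 untreated library and 1 library after 250 U/ml interferon-γ (IFNγ), so that each of the 4 groups held 2 libraries. The labels give 24 hours of IFNγ, whereas a longer exposure appears in the study's text, and which of these applies is uncertain. The 2 libraries of a group came from 2 clones of 1 cell line, so the spread within a group is that between clones. An SD marked n = 4 runs over the 4 libraries of a genotype or of a treatment. It mixes clones with treatments or with genotypes, and the 4 libraries of a genotype come from 2 clones. Because each genotype rests on 2 clones, a difference between the genotypes cannot be told apart from differences between clones.

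The lists held 16730 to 37533 peaks, the longest being that of IFNγ-treated WT_5. Read totals were not given with the lists. The study's methods give a range of reads over its FAIRE-seq samples, so the depth of each single library is unknown. The lowest background in a list, the level that the peak caller derives from the reads over the whole genome, ranged from 0.621 to 1.08 reads. The median local background was higher in all 4 KO libraries (1.83 to 3.05) than in the 4 WT libraries (1.01 to 1.55). The loss of ZBTB48 protein cannot be read from peaks. The promoter of MTFP1, a known ZBTB48 target, held a peak in 3 of 4 WT libraries and in 0 of 4 KO libraries. Of 8 mesenchymal genes fixed as markers of U2OS, VIM, RUNX2 and CALD1 had a promoter peak in all 8 libraries, 4 had one in some and COL1A2 had none. Of 8 markers of other cell types, 6 had none and EPCAM had one in all 8, at a mean percentile of 42.0. Each gene's percentile below is the rank of its peak by −log10 p within its own list, with 100 the strongest. The rank is relative to the list, and the lists differ in length. Over the 11551 regions found in all libraries, the median KO minus WT difference in percentile was −7.78 untreated and −0.96 with IFNγ. The median IFNγ minus untreated difference was 0.00 in WT and 5.01 in KO. The percentiles below are not corrected for these shifts.

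AP-1 is a dimer of basic leucine zipper proteins. JUN family proteins pair with each other or with FOS family, ATF and BATF proteins, and FOS family proteins need a JUN partner to bind DNA. The dimers bind the TPA response element, TGANTCA, or the related cyclic AMP response element, TGACGTCA. Several of the genes are immediate early genes, whose transcription rises within minutes of a stimulus without new protein synthesis. In mesenchymal cells such as osteosarcoma cells, AP-1 sites are a common feature of distal open chromatin.

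The sequences at 3 promoters and 4 distal regions are shown because these regions are described below. They are GRCh38 sequence and lie outside annotated exons. Capitals mark TGANTCA, TGACGTCA or TGANNTCA. The last of these was added after the data were seen, and TGACGTCA also matches it. The JUN promoter was read from RefSeq directly upstream of its start (chr1:58784049-58784197, minus strand), and the others are windows centred on the summit of a region.
JUN promoter: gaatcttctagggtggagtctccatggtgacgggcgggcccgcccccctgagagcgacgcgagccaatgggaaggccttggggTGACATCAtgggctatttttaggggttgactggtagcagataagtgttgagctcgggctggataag
The JUND promoter (chr19:18281704-18281854, minus strand) holds a full cyclic AMP response element.
JUND promoter: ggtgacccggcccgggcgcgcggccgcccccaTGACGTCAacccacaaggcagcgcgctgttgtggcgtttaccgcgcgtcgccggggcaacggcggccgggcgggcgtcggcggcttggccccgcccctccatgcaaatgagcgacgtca
The BATF3 promoter (chr1:212699291-212699441, minus strand) and the distal region 2.35 kb upstream of FOSL2 (chr2:28390429-28390579, plus strand) hold none of these letters. The BATF3 window lies in an intron of the gene, around a summit 0.474 kb downstream of the main start.
BATF3 promoter: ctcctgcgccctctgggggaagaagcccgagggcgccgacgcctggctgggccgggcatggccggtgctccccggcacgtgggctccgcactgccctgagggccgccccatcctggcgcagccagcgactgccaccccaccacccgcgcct
FOSL2 upstream region: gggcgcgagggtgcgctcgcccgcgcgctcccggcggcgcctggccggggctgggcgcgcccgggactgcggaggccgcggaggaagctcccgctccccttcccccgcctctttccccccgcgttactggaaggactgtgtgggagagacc
The distal regions 12.1 kb upstream of FOSB (chr19:45455858-45456008, plus strand), 15.5 kb upstream of FOSL1 (chr11:65915823-65915973, minus strand) and 28.0 kb downstream of the start of BATF3 (chr1:212671791-212671941, minus strand) hold TGANTCA.
FOSB upstream region: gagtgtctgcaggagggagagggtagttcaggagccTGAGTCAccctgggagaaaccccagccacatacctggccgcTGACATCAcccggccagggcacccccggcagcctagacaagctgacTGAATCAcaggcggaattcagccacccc
FOSL1 upstream region: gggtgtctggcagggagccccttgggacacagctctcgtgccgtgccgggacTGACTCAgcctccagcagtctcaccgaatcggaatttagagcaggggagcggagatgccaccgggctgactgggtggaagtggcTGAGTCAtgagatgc
BATF3 downstream region: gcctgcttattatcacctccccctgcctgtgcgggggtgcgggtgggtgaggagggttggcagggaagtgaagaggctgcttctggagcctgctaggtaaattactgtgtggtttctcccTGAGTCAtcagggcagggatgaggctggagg

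All 9 genes had a promoter peak in all 8 libraries. Of 19970 protein-coding genes, 51.2% did so, and within single libraries the share was 57.8% to 68.3%. Of the 52105 regions, 22.2% were found in all 8 libraries, and of the 66 AP-1 regions 29 (43.9%) were, among them 10 of the 11 own-promoter regions. In bulk chromatin, a site that is less open in every cell and a site that is open in fewer cells cannot be told apart. Of the 9 mean percentiles, 7 lay above 76.9, the median of the promoters with a peak in all libraries, and those of FOS and BATF3 lay below it. Presence of an open promoter does not measure transcription, which was not assayed in these lists.

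**Figure D1:**
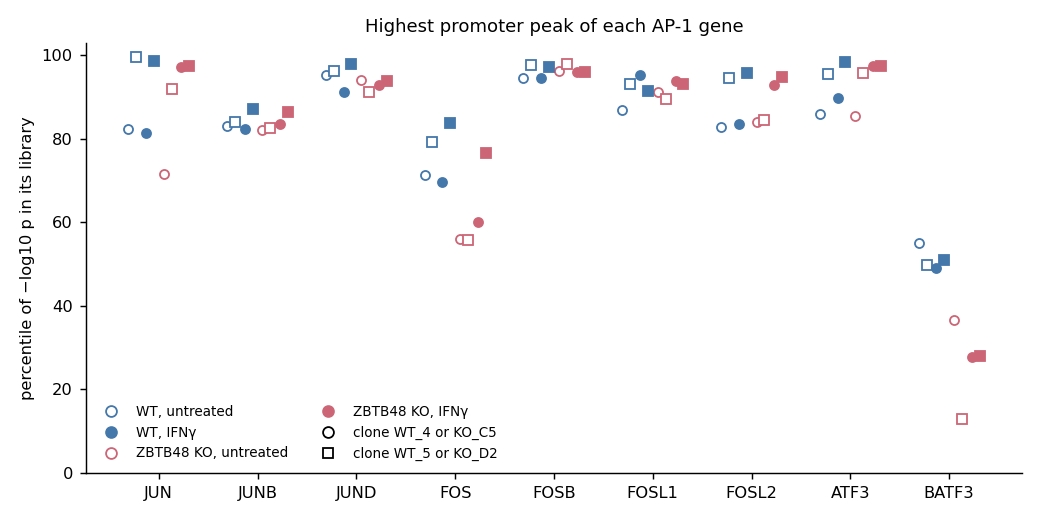
Percentile of −log10 p of the highest promoter peak (y axis, 0 to 100) of each AP-1 gene (x axis), 1 point per library, blue for WT, red for KO, filled for IFNγ, with the marker shape giving the clone. FOSB (94.5 to 98.0) and JUND (91.1 to 97.9) sit high in every library, whereas JUN runs from 71.6 to 99.5 and BATF3 from 12.9 to 55.0.

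Of the JUN family, JUN, the founding member and a strong activator, had the widest spread between libraries. Its promoter region (chr1:58782303-58785603) spanned the start, with a mean of 1418 bp under peaks against a median of 672 bp for such promoters. In untreated cells its percentile was 82.3 in WT_4, 99.5 in WT_5, 71.6 in KO_C5 and 91.9 in KO_D2. With IFNγ the values were 81.3, 98.6, 97.2 and 97.5. WT_4 was thus low and WT_5 high under both treatments, and the clone difference in WT was larger than that between the treatments. KO_C5 moved from the lowest value to near the highest, and the genotypes overlapped.

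JUNB, which is a weaker activator and can restrain JUN, had the steadiest JUN family promoter (chr19:12791204-12793052). Its percentile ranged from 82.1 to 87.1 with a mean of 83.9. JUND, expressed broadly and through the cell cycle, had a percentile of 91.1 to 97.9 over a promoter region (chr19:18279450-18282484) with a mean of 1692 bp under peaks. In both genes the libraries of the 2 genotypes overlapped.

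FOS, the classical immediate early gene, had the second lowest mean percentile, 69.0, which ranked at 34.0 among the promoters open in all libraries. Its promoter region (chr14:75278279-75279667) had a percentile of 71.4, 79.3, 69.6 and 83.7 in the WT libraries, untreated first, and of 55.9, 55.8, 60.0 and 76.6 in the KO libraries in the same order. The KO mean was lower (62.1 ± 9.87 against 76.0 ± 6.65, SD, n = 4 each), but the values overlapped. FOSB, which is also transcribed early after a stimulus, had 2 promoter regions. The one upstream of the main start had a percentile of 78.9 to 91.8, and the one in an intron at 1.31 kb downstream (chr19:45469051-45470029) had 94.5 to 98.0. The intronic region carried the highest mean of all AP-1 promoters, 96.3.

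FOSL1 and FOSL2 encode FRA1 and FRA2, which lack the activation domain of FOS and accumulate later. FOSL1 had the narrowest promoter of the 9 genes (chr11:65899174-65900826), with a mean of 690 bp under peaks, near the median of all such promoters, and a percentile of 87.0 to 95.3. FOSL2 had the broadest promoter of the 9 genes (chr2:28391595-28393833), with a mean of 1930 bp that ranked at 98.8 among such promoters, and a percentile of 82.8 to 95.8. Height and breadth therefore did not go together in this pair.

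ATF3, a stress-induced factor that often represses, had a percentile of 86.0, 95.4, 85.4 and 95.7 in untreated WT_4, WT_5, KO_C5 and KO_D2, and of 89.7, 98.4, 97.3 and 97.3 with IFNγ. The peak lay at an internal start (chr1:212607592-212609870), and no library had one at the 5' end of the annotated gene. BATF3, which partners JUN proteins in dendritic cells and T cells, had the weakest promoter of the group (chr1:212699001-212700702). Its mean percentile was 38.8, which ranked at 3.35 among the promoters open in all libraries, although the region was broad, with a mean of 1121 bp.

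The comparison of the genotypes addresses whether loss of ZBTB48 changes open chromatin at these genes. Fold enrichment, as written by the peak caller, is the summit pileup over the local background, with 1 added to each. It was lower in every KO library than in every WT library at 5 of the 10 own-promoter regions found in all 8 libraries. The share over all 10083 promoter regions found in all libraries was 23.5%. The 5 were the FOS region, both FOSB regions, FOSL1 and BATF3. At the 8 distal regions found in all libraries the count was 0, against 18.1%. The local background was higher in every KO library at all 10 own-promoter regions (58.9% of all such regions) and at 5 of 8 distal regions (54.0%), and its part in the lower fold values was not tested.

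At the FOS promoter the fold was 33.9, 27.4, 23.9 and 39.3 in WT libraries (31.1 ± 6.85, SD, n = 4) and 10.8, 12.0, 10.6 and 14.7 in KO libraries (12.0 ± 1.88, SD, n = 4). The groups did not overlap. The local background there was 0.921 to 1.52 reads in WT and 3.35 to 5.24 in KO. The summit pileup divided by the lowest background of the library, a height that uses no local background, was 101, 66.4, 72.5 and 108 in WT and 71.0, 81.4, 71.8 and 81.6 in KO, and the groups overlapped. In limma on quantile-normalized log2 fold, the KO minus WT difference was −0.79 (SE 0.38, adjusted p = 0.706) in untreated cells and −0.85 (SE 0.38, adjusted p = 0.447) with IFNγ. The latter became −0.35 without treated KO_C5 and −1.36 without treated KO_D2.

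FOSB showed the same split between fold and height. At its intronic region the WT fold averaged 86.1 ± 17.7 and the KO fold 48.9 ± 7.95 (SD, n = 4 each). The raw summit pileup was instead higher in every KO library (189 ± 16.2 reads against 152 ± 35.3), a pattern seen at 0.179% of promoter regions. The groups were barely apart, with 173 reads in untreated KO_D2 and 172 in treated WT_5, and treated WT_4 was lowest at 99. The raw pileup is not adjusted for depth. Divided by the lowest background, the pileups overlapped. At the upstream FOSB region the fold was 46.2 ± 11.7 in WT and 25.2 ± 4.91 in KO, and at FOSL1 57.0 ± 3.95 and 42.7 ± 6.97. Over the 10 own-promoter regions, the height over the lowest background was lower in every KO library at 0, against 0.268% of all promoter regions.

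**Figure D2:**
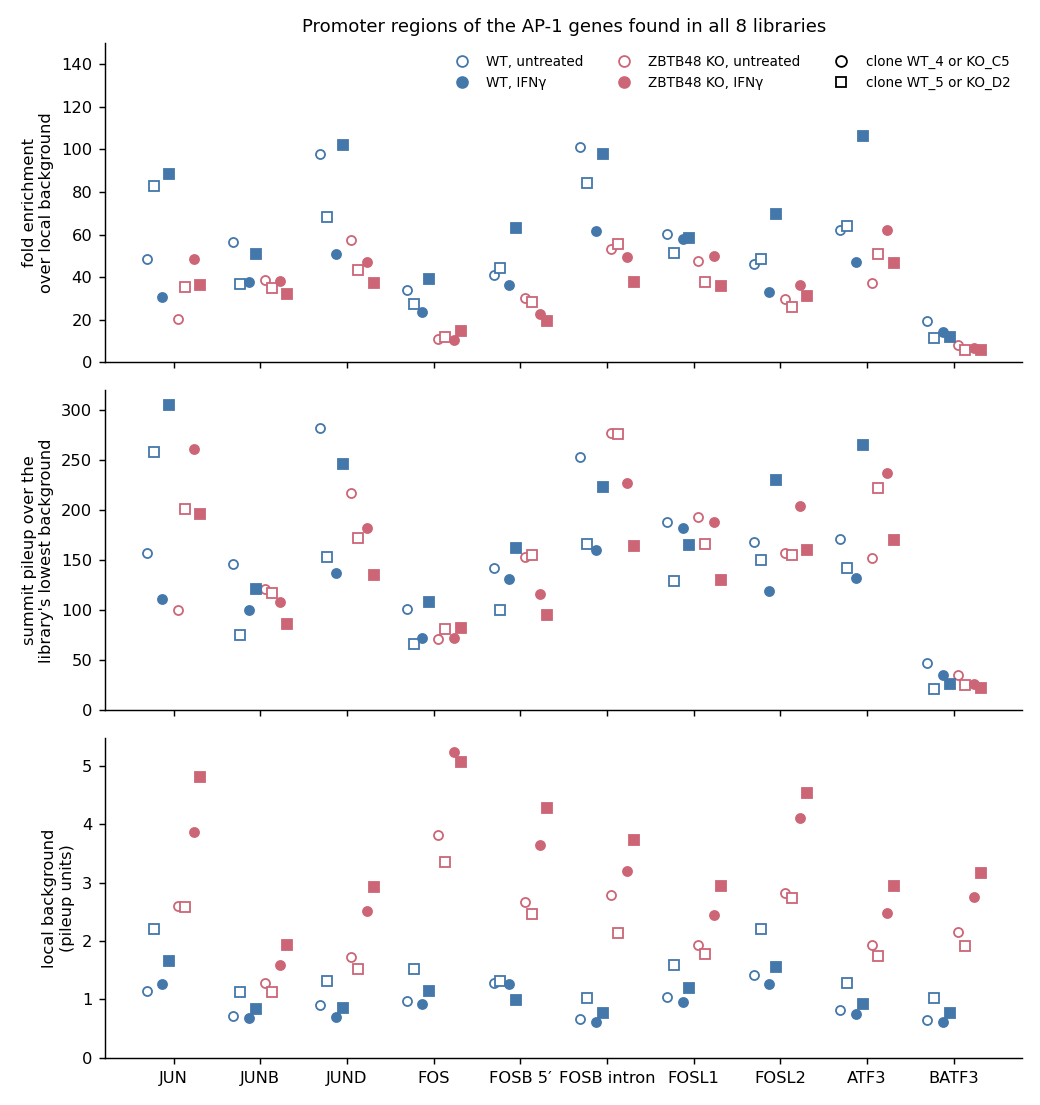
Fold enrichment, summit pileup over the lowest background of the library, and local background in pileup units (y axes, top to bottom) at the 10 AP-1 promoter regions found in all libraries (x axis), 1 point per library, blue for WT, red for KO, filled for IFNγ. The fold at FOS is 23.9 to 39.3 in WT and 10.6 to 14.7 in KO, the local background is higher in every KO library, and the heights over the lowest background overlap.

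BATF3 was the 1 own promoter of 10 at which the percentile was also lower in every KO library, against 7.12% of all promoter regions. The values were 55.0, 49.8, 49.1 and 51.0 in WT (51.2 ± 2.65, SD, n = 4) and 36.7, 12.9, 27.7 and 28.0 in KO (26.3 ± 9.87, SD, n = 4). The fold averaged 14.2 ± 3.64 for WT against 6.68 ± 1.09 for KO. The height over the lowest background overlapped, at 47.3, 21.5, 35.5 and 26.0 in WT and 34.8, 25.5, 26.5 and 22.2 in KO. With all lists shortened to the same number of peaks, a reading of this value added after the data were seen, the percentile difference of −24.9 became −11.8, and the peak was no longer listed in 3 of the 4 IFNγ libraries. The limma difference was −0.59 (SE 0.42, adjusted p = 0.808) in untreated cells and −0.65 (SE 0.42, adjusted p = 0.581) with IFNγ. With 1 library left out, the former ran from −0.86 to −0.33, without untreated KO_C5 and KO_D2, and the latter from −1.10 to −0.19, without treated WT_5 and WT_4.

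Across all 11551 regions found in every library, limma called 0 regions at an adjusted p under 0.05 (0% called) for the genotype difference in untreated cells and 0 with IFNγ (0%). At an unadjusted p under 0.05 there were 820 (7.10%) and 1319 (11.4%). Of the 29 AP-1 regions tested, 2 and 1 passed that unadjusted threshold. In untreated cells these were a region 19.7 kb upstream of FOS at starts of other genes (−0.79, SE 0.24, adjusted p = 0.664) and the region 2.35 kb upstream of FOSL2 (0.87, SE 0.37, adjusted p = 0.687), the latter higher in KO. With IFNγ it was the upstream FOSB promoter region (−0.71, SE 0.27, adjusted p = 0.409). No region of the 66 was found in WT only or in KO only, against 0.205% and 0.0115% of all regions, and none was gained or lost with IFNγ over all 8 libraries, against 0.127% and 0.00192%.

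The comparison of treatments addresses how IFNγ changes open chromatin at the AP-1 genes. The clearest difference was at the region 2.35 kb upstream of FOSL2 (chr2:28390078-28391271), in an intron of the antisense transcript FOSL2-AS1. Its percentile was 68.2, 71.5, 80.6 and 66.0 in untreated WT_4, WT_5, KO_C5 and KO_D2, and 88.5, 86.3, 90.3 and 95.8 with IFNγ. The groups did not overlap (71.6 ± 6.46 against 90.2 ± 4.03, SD, n = 4 each), as at 1.36% of distal regions found in all libraries. The value was higher with IFNγ in 4 of 4 clones.

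The same region was higher by the other measures. Its fold was 20.0, 12.9, 25.1 and 16.0 in untreated cells and 28.6, 28.3, 30.6 and 32.1 with IFNγ, again without overlap (0.817% of distal regions). The height over the lowest background was 119, 67.4, 145 and 97.4 against 172, 164, 187 and 171, also without overlap (1.02%). The limma difference was 0.81 on the log2 scale in WT (SE 0.37, adjusted p = 1.000) and 0.62 in KO (SE 0.37, adjusted p = 0.838), and no difference between these effects was detected (−0.19, SE 0.53, adjusted p = 1.000). With both genotypes together and the clone as a block, a fit added after the data were seen, it was 0.71 (SE 0.20, unadjusted p = 0.00396, adjusted p = 0.277). With 1 library left out, the WT value ran from 0.43, without treated WT_4, to 1.19, without treated WT_5, and the KO value from 0.32, without treated KO_D2, to 0.93, without treated KO_C5. The untreated and treated values did not overlap in any of the 3 measures, and the difference did not pass the correction over all regions. All 3 measures come from the fold and −log10 p listed for the same peaks, so they are not independent of each other.

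The region 15.5 kb upstream of FOSL1 (chr11:65915672-65916110), which holds TGACTCA and TGAGTCA as printed above, was also higher with IFNγ in 4 of 4 clones. Its percentile went from 37.9 to 56.6 in WT_4, from 71.9 to 80.4 in WT_5, from 23.6 to 68.3 in KO_C5 and from 40.6 to 71.6 in KO_D2. The percentiles of the treatments overlapped, since untreated WT_5 was above treated WT_4. The fold overlapped as well, with 17.8 in untreated WT_5 and 15.1 in treated WT_4. The height over the lowest background did not overlap (42.2 ± 13.4 against 77.2 ± 20.6, SD, n = 4 each). Its nearest values were 54.7 in untreated WT_5 and 56.4 in treated WT_4. Such a separation occurred at 1.02% of distal regions found in all libraries. The limma difference was 0.62 in WT (SE 0.47, adjusted p = 1.000), 0.91 in KO (SE 0.47, adjusted p = 0.838) and 0.76 with the clone as a block (SE 0.23, adjusted p = 0.277). With 1 library left out, the WT value ran from 0.03, without untreated WT_4, to 1.20, without untreated WT_5, and the KO value from 0.48, without untreated KO_C5, to 1.35, without untreated KO_D2.

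**Figure D3:**
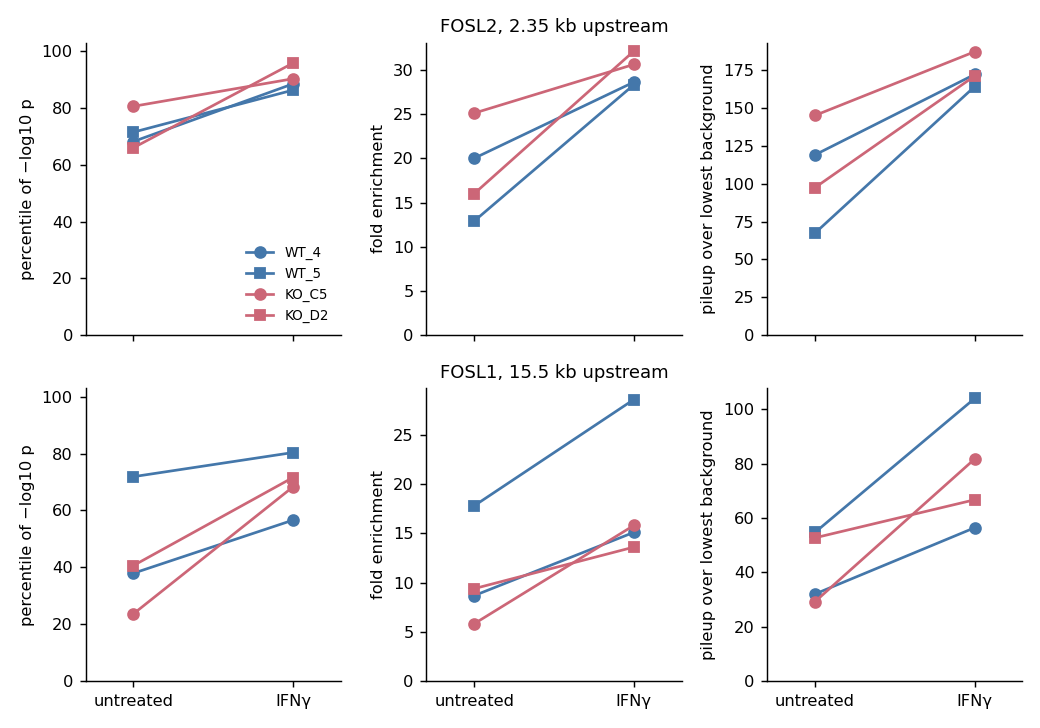
Percentile, fold enrichment and summit pileup over the lowest background (y axes, left to right) of the regions upstream of FOSL2 (top) and FOSL1 (bottom) without and with IFNγ, with a line joining the 2 libraries of each clone. At the region upstream of FOSL2 all 4 lines rise, from a percentile of 66.0 to 80.6 to one of 86.3 to 95.8.

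Of the 29 AP-1 regions found in all libraries, 8 (27.6%) had a higher percentile with IFNγ in all 4 clones, against 15.9% of all such regions. They were the regions upstream of FOSL2, FOSL1 and JUND, the promoters of FOSL2 and ATF3, and 3 regions at starts of other genes. The count was 3 (10.3%) for the fold, against 6.23%, and 4 (13.8%) for the height over the lowest background, against 4.88%. At ATF3 the height was mixed, 171, 142, 152 and 222 before and 132, 265, 237 and 170 after. At the JUND region 10.1 kb upstream (chr19:18291468-18292496) the percentile was 44.2, 57.2, 56.9 and 24.2 before and 45.1, 75.3, 64.7 and 60.9 after, with hardly any difference in WT_4 and the largest in KO_D2. The distal region 2.13 kb downstream of the start of JUNB (chr19:12793367-12794246) was the 1 region of the 29 with a lower fold in all 4 clones, against 2.02% of all such regions. Its fold was 59.4, 51.8, 45.2 and 44.1 before and 41.2, 48.1, 41.5 and 40.4 after, and the groups overlapped (log2 difference in WT −0.23, SE 0.27, adjusted p = 1.000, limma).

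In limma, the IFNγ effect called 0 of 11551 regions in WT and 0 in KO (0% each), with 75 (0.649%) and 366 (3.17%) at an unadjusted p under 0.05, and the difference between these effects called 0, with 91 (0.788%). Of the 29 AP-1 regions, 0 passed an unadjusted p under 0.05 in any of these 3 comparisons. With the clone as a block, the counts were 1 in WT (4.51% of all regions passed), 6 in KO (19.2%) and 3 for the difference (8.47%), and none passed the adjusted threshold. In WT it was the region upstream of FOSL2, and the 3 were the JUN promoter (0.81, SE 0.31, adjusted p = 0.549), the region 12.1 kb upstream of FOSB (0.71, SE 0.31, adjusted p = 0.584) and the upstream FOSB promoter region (−0.78, SE 0.29, adjusted p = 0.549). With the clone as a block and both genotypes together, 5 regions passed (0.0433%), all higher with IFNγ, at adjusted p of 0.0184 to 0.0471. The genes nearest to them were CSF1, IL15RA, FAM111A, CEBPB and CD274, of which CD274 and IL15RA are textbook IFNγ-induced genes. No AP-1 region was among them.

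Of the 34 distal regions, 8 (23.5%) were found in all libraries, against 4.60% of 31919, and 7 (20.6%) in 1 library, against 51.9%. This difference was not tested. The sets are unlike, here and below, because the 31919 lie at any distance from a gene and the 34 within 20 kb of a member. Of the 8, those 1.45 and 2.13 kb from the main start of JUNB, 1.72 kb from FOS and 2.35 kb from FOSL2 lie close to promoters. The others lie 8.86 to 15.5 kb away. The most widely found distal region of each gene was 2.13 kb downstream of the start for JUNB, 10.1 kb upstream for JUND, 1.72 kb upstream for FOS (chr14:75276864-75277824) and 12.1 kb upstream for FOSB, in an ERCC1 intron (chr19:45455689-45456527), beside the FOSL1 and FOSL2 regions above. The JUNB region was high throughout, at a percentile of 84.6 to 91.0. At FOS the distal region had a percentile of 65.3 to 88.6, a range like that of the promoter. At FOSB it was 71.6, 93.2, 65.3 and 85.2 in untreated cells and 72.0, 91.2, 88.5 and 95.5 with IFNγ, with WT_4 low under both treatments.

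JUN, ATF3 and BATF3 had no distal region in all 8 libraries. The JUN region 2.17 kb downstream of the start (chr1:58781721-58782028), in its own untranslated exon, was found in 7 libraries at a percentile of 34.1 to 63.6. An ATF3 intron region (chr1:212595947-212596608) was gained with IFNγ in both WT clones, as were 0.747% of all regions, but it was also listed in both untreated KO clones, and its percentiles ran from 2.97 to 30.5. Another ATF3 intron region (chr1:212606866-212607300) was listed in untreated WT_4 and WT_5 alone, at percentiles of 4.06 and 6.43. Loss in both WT clones occurred at 0.451% of all regions.

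Gain in both KO clones was more frequent, at 8 of 66 regions (12.1%) against 6.75% of all regions, and at 7 of 34 distal regions (20.6%) against 7.90%. With lists of equal length 2 regions showed this pattern, and the share over all regions at that length is not given here. The whole lists of KO_C5 and KO_D2 held 19255 and 16730 peaks untreated and 27457 and 24727 with IFNγ. The part of list length in these gains was not tested. Loss in both KO clones occurred at 0 of 66, against 0.159%. The 8 lay near JUNB, FOSB, FOSL2, ATF3 and BATF3 and, in 3 cases, near FOSL1. Of these, 5 were found in WT_5 and in treated KO libraries only (7.58% of the 66, against 3.59%). The BATF3 region 28.0 kb downstream of the start, printed above, was 1 of them, with percentiles of 21.5 to 53.7 in 4 libraries, and a region 28.1 kb downstream of the start of ATF3 (chr1:212636592-212637012) was stronger, at 74.1 in untreated WT_5 and 81.7, 77.9 and 70.2 with IFNγ in WT_5, KO_C5 and KO_D2.

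**Figure D4:**
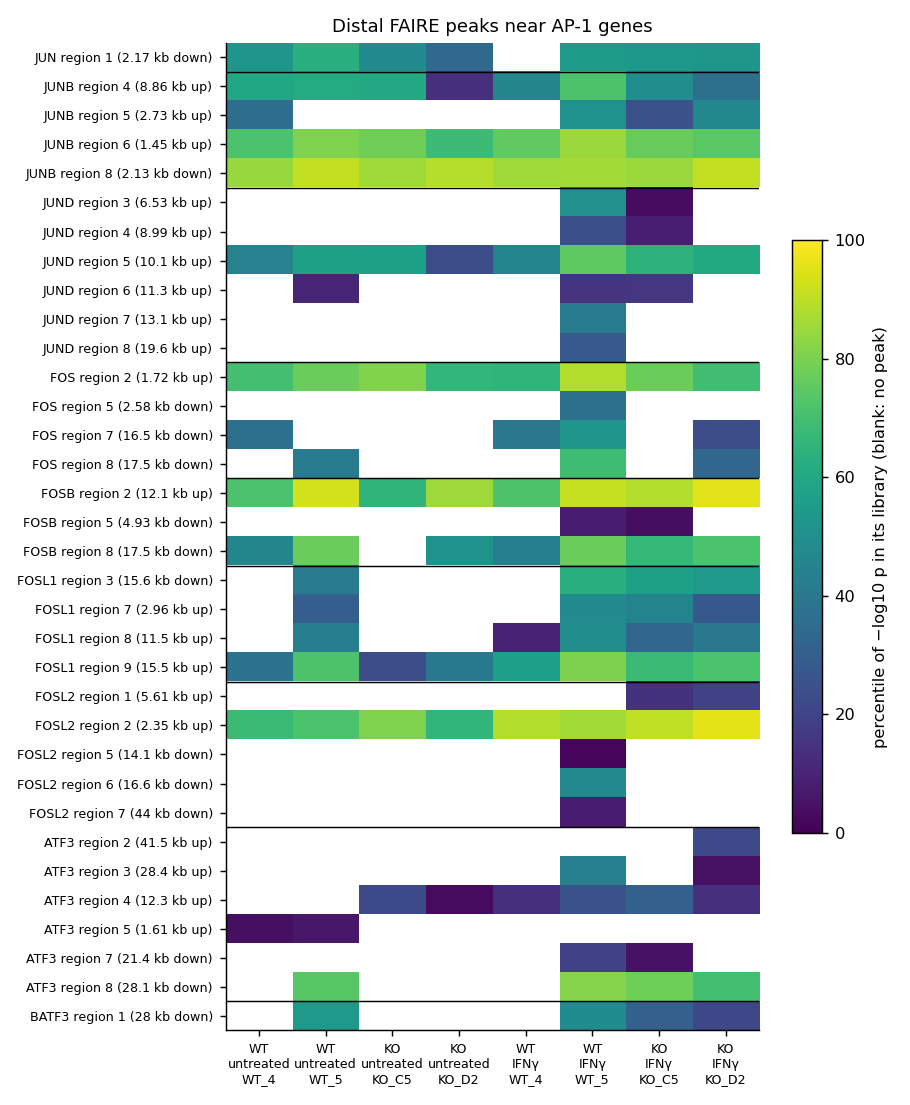
Percentile of −log10 p in each library (columns) for the distal AP-1 regions (rows), as a colour from 0 to 100, with blank cells where no peak was listed. Of the 34 rows, 8 are filled in all libraries and 6 in treated WT_5 alone.

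Single peaks over 500 bp from any start were also counted in each library, including those in regions that reach a start with another peak, so that their sum exceeds the peaks of the 34 distal regions. Their number was 17, 18, 15 and 16 in untreated WT_4, WT_5, KO_C5 and KO_D2 and 15, 36, 27 and 24 with IFNγ. The IFNγ minus untreated difference was 9.0, beside an SD of 7.52 between replicates, and it was 5.50 without treated WT_5, the longest list. In that library alone 8 AP-1 regions (12.1%) were listed, against 14.7% of all regions. With each list shortened to its 16730 strongest peaks, the numbers were 15, 12, 14, 16, 13, 14, 16 and 17, and the difference was 0.750. The WT minus KO difference was 1.0, and −3.83 without treated WT_5.

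**Figure D5:**
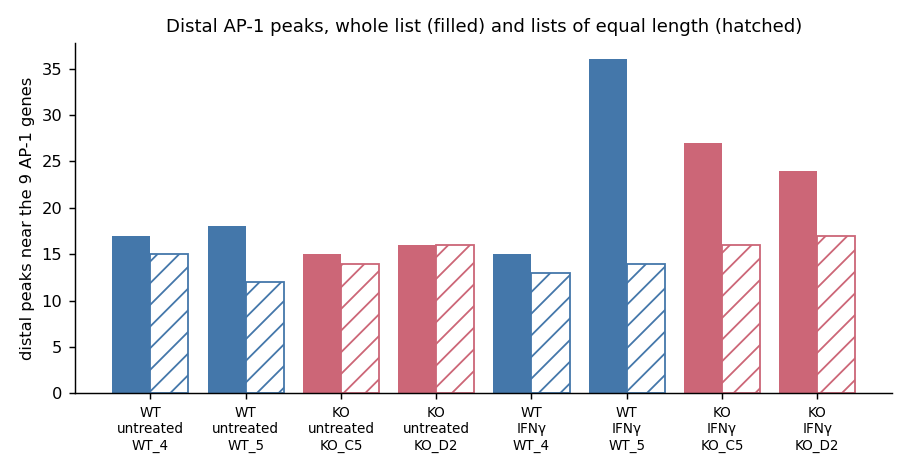
Number of distal peaks at the AP-1 genes per library (y axis) for each library (x axis), filled bars for the whole lists and hatched bars for lists of equal length. Treated WT_5 stands at 36 with its whole list and at 14 with equal lists.

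Motifs were sought on both strands within 100 bp of each summit. TGANTCA was present in 9 of 34 distal AP-1 regions (26.5%), against 23.5% of all distal regions, and in 1 of 11 own promoters, that of FOSL2, against 6.51%. The share in distal regions was thus near the background. TGACGTCA was present in 2 of 11 own promoters (18.2%), among them that of JUND printed above, against 2.24% of promoter regions. TTCNNNGAA, the letters of a gamma-activated sequence, was present in 2 of 34 distal regions (5.88%), against 5.47%, and in 0 of 11 own promoters, against 3.07%. The region downstream of JUNB and the ATF3 intron region gained in WT held it, and the FOSL2 region that was higher with IFNγ did not. The interferon-stimulated response element, read as GAAA, any 2 bases and GAAA, was present in 1 of 34 distal regions (2.94%), in an ATF3 intron, against 3.36%. TTAGGG, the repeat that ZBTB48 binds at telomeres, was present in 1 of 34 distal regions (2.94%), 1.45 kb upstream of JUNB, against 3.95%, in 0 of 11 own promoters, against 4.08%, and in the RefSeq promoter window of JUN, as in 9.05% of 35116 such windows.

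The genes that act with AP-1 were read by the same measure. Of 13 further leucine zipper genes that can pair with JUN or FOS proteins, 10 had a promoter peak in all libraries. BATF had none, and BATF2 had one in 4 libraries, both of WT_5 and both treated KO libraries. Of 15 kinases and factors that act on AP-1 genes, 13 had one in all libraries, ELK3 in 7 and MAPK3 in 6. Of 15 immediate early genes outside AP-1, 14 had one in all libraries, and EGR3 had one in the WT_4 libraries alone. Of 15 genes regarded as AP-1 targets, 5 had one in all libraries, 6 in some and 4 in none, the latter being the matrix metalloproteinases MMP1, MMP3, MMP9 and MMP13. CD44 had one in 7 libraries, IL6 in 6, all but the untreated KO libraries, and CXCL8 in 3. The median over genes of the mean percentile, for promoters open in all libraries, was 90.0 for the AP-1 genes, 86.3 for the partners, 91.0 for the kinases and factors, 78.1 for the other immediate early genes and 81.6 for the targets, beside 76.9 for all genes.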

How the data were processed

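FAIRE-seq of 8 libraries was analysed from 1 narrowPeak list per library. As the study's methods and the submitters' processing notes state, the authors trimmed reads with Trimmomatic, aligned them to GRCh38 with Bowtie2 2.2.5, removed alignments of mapping quality under 30 with SAMtools 1.14 and called peaks per library with MACS2 2.2.7.1 in paired-end mode. Whether a control library was used and how duplicates were treated are not given in the sources used here. The deposited lists hold each peak's fold enrichment, its −log10 p and its −log10 q, as MACS2 writes them. The fold is a ratio over the local background, with 1 added to both terms. The score that the authors' MACS2 run also wrote is in the deposited lists and was not used. Of 196601 peaks, 195897 on chromosomes 1 to 22 and X were used.

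Overlapping peaks were merged over the libraries into regions, and the highest peak of a library stood for the region. Genes came from GENCODE 44. Summit pileup and local background were solved from each peak's fold and −log10 p, with the pileup taken as a whole number. For 100% of peaks the listed −log10 p was reproduced within a relative 0.0001. A region present in all libraries was tested with limma 3.58.1 (R 4.3.3) on quantile-normalized log2 fold, with 4 groups, 2 libraries each, a trended prior and Benjamini-Hochberg adjustment over 11551 regions, a threshold of 0.05. Where the text gives an adjusted p, it is this one, two-sided, unless the clone is named as a block. In that case it comes from the fit with that block, adjusted in the same way. The fit was tested on simulated data with independent noise of a common spread and no correlation within clones. That setting differs from these data, so it does not give the power or false calls here, and its outcome is not given. Groups of 4 libraries are compared by whether their values overlap, beside the share of all regions that do so, with no p. Untreated and treated libraries were paired by the clone in the labels, and deviations of the same clone correlated at 0.700 in WT and 0.387 in KO. The WT and KO clones share only a number. Python 3.11.15, pandas 2.3.3, NumPy 2.4.6, SciPy 1.17.1, pysam 0.24.0 and matplotlib 3.10.9 were used. RefSeq promoter windows were found for 7 of the 9 genes.

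The genes, lists and the rules for naming regions were chosen with earlier results of these data known. All 9 genes are named. Of distal regions, the one in the most libraries (ties by percentile) is named for each gene, as is each region gained or lost with IFNγ in both clones of a genotype. Of other lists, at most 4 genes with a promoter peak in some libraries are named, alphabetically. Some items that these rules would name are not reported here. Regions that were higher with IFNγ in all clones, the MMP genes, BATF, COL1A2 and EPCAM were singled out after their values were seen. Alternatives were equal list lengths, other promoter windows and flanks, stricter peaks, 50% overlap, no normalization, clone or number as a block, and leaving out each library. A fit over both genotypes, pileup in place of fold, the height over the lowest background and TGANNTCA were added after the data were seen.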

Additional observations from a re-analysis of the deposited data

How the results depend on the processing

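Of 493 recomputed values, 457 were labelled the same. For the limma differences of named regions this meant the same direction and side of the threshold. For peak numbers and percentile differences it meant a change within the spread, and for counts of regions one within a fixed ratio. The total does not measure robustness, because part of the labels could hardly change. Promoter numbers were 9 in every library, and named regions lay far above the adjusted threshold. The WT effect upstream of FOSL1 ran from 0.03 to 1.20 with single libraries left out, and each of these values was labelled the same. A reversal was looked for at the named regions alone, where it occurred in 0 values. The WT minus KO difference in distal peaks changed sign without treated WT_5, within the spread. The mean number of AP-1 promoters with a peak became 8.62 with lists of equal length, 8.75 with a 200 bp window and 8.0 with the 5' end of the gene alone, which left out ATF3. Its WT minus KO difference became 0.250 with equal lists and 0.50 with the 200 bp window, and its IFNγ minus untreated difference −0.750 with equal lists. BATF3 had no peak in either KO_D2 library with the 200 bp window. Distal peaks averaged 10.5 with a 5 kb flank and 32.6 with 50 kb, beside 21.0, and the IFNγ minus untreated difference fell to 0.750 with equal lists. Regions gained in both KO clones became 2 with equal lists, those lost became 3 with equal lists and 1 with 50% overlap, those gained in both WT clones became 0 with equal lists, and those lost in both WT clones became 0 with −log10 q of at least 3. The cause was not tested.

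Leaving out 1 library at a time gave distal means of 18.9 to 21.9, IFNγ minus untreated differences of 5.50 (without treated WT_5) to 12.5 and WT minus KO differences of −3.83 (without treated WT_5) to 3.17. Gained regions ranged from 8 to 15 in KO, with 14 and 15 without treated KO_C5 and KO_D2, and from 1 to 15 in WT, the 15 without treated WT_4, lost regions from 0 to 1 in KO and from 1 to 3 in WT, and regions gained over all libraries from 0 to 1. The log2 IFNγ effect upstream of FOSL2 ranged from 0.43 to 1.19 in WT and from 0.32 to 0.93 in KO.

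The genotype difference in untreated cells called 7 regions without normalization, which moved the median log2 of all regions by −0.60, and 0 to 4 with 1 library left out, the 4 without treated WT_5. With IFNγ it called 2 without normalization. With the clone as a replicate block the untreated count was 2, and with the number as a block it was 5 (untreated) and 2 (IFNγ). In the added fits over both genotypes or treatments, the IFNγ effect called 0 without the block, 5 with it and 3 with pileup and the block, and the genotype difference called 5, 2 and 0. AP-1 regions were among the calls in 0 of these settings. The depth of each single library is unknown, the lists differ in length, and each genotype has 2 clones.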
